A study of Mus musculus with 2 samples.

Results

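Non-myelinating Schwann cells were picked out of 2 single-cell RNA libraries of lumbar 4 to 5 dorsal root ganglia of wild type mice, 8 weeks old, treated with acetone, ether and water (AEW), a skin treatment that the series' design text gives as its itch state. Both libraries belong to the AEW group, so every comparison below is between cell classes of the same libraries and none is between treated and untreated mice. A barcode was a member when at least 500 genes were detected, under 20% of its unique molecular identifiers (UMIs, single captured RNA molecules) were mitochondrial, and it met 4 limits on genes per 10000 UMIs. Those limits were under 25 for the neuron genes Uchl1, Tubb3, Snap25 and Stmn2 together, at least 5 for Scn7a with at least 2 UMIs, under 40 for Fabp7, and under 10 for the myelinating genes Prx, Ncmap, Cldn19, Drp2 and Pllp together. The rule found 334 members among 19619 kept barcodes. Replicate 1 held 205 members of 8329 kept barcodes, a share of 2.46% (95% exact binomial interval 2.14 to 2.82). Replicate 2 held 129 of 11290, a share of 1.14% (0.955 to 1.36), below the interval of replicate 1. The mean share was 1.802% ± 0.932 (SD, n = 2).

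Non-myelinating Schwann cells, also called Remak Schwann cells, hold bundles of thin unmyelinated axons in separate troughs of their cytoplasm, and in the dorsal root ganglion these axons are mostly the C fibres that carry pain, itch and temperature. Satellite glia wrap the neuron cell bodies of the same ganglion, and myelinating Schwann cells each wrap 1 segment of a larger axon in compact myelin. All of them descend from the neural crest and use the transcription factor Sox10, and the non-myelinating form is classically recognised by the adhesion molecules L1cam and Ncam1, the neurotrophin receptor Ngfr and the intermediate filament Gfap.

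The labels call the cells of both libraries neurons, although these barcodes carry glial genes. The labels do not say whether the replicates came from separate mice. The p-values below measure only the spread between these libraries that is left once a shift common to all classes of a library is removed. That spread may be technical. Each library was made with 10x 3' chemistry (v3.1) after enzymatic dissociation. The libraries held 113251556 and 102347251 UMIs over 8818 and 11767 barcodes. Pairs of values without other names are those of replicate 1 and then replicate 2. The libraries shared 24 barcode sequences, of which 1 was a member in 1 of the libraries and 0 were members in both. Satellite glia, taken as Fabp7 at 40 or more per 10000, numbered 2150 and 2225, and myelinating Schwann cells, taken as myelinating genes at 10 or more per 10000, numbered 586 and 171. Members had a median of 3543 and 3454 UMIs, satellite glia 8402 and 7427, and myelinating Schwann cells 4645 and 3662. Their summed UMIs came to 821984 and 539850 in non-myelinating Schwann cells, against 19389869 and 17205158 in satellite glia and 3353250 and 710301 in myelinating Schwann cells. The median mitochondrial share was 3.30% and 4.36% in members, against 7.66% and 8.39% in satellite glia and 4.61% and 6.09% in myelinating Schwann cells. Counting intervals cover counting error only.

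The members were chosen by their levels of Scn7a, which encodes the sodium-sensing channel Nax, of Fabp7, and of the neuron and myelinating genes, so these levels in them are a description. Members ranged in Scn7a from 5.09 through a median of 23.4 to 87.7 per 10000 in replicate 1, and from 5.01 through 12.7 to 84.6 in replicate 2. The members nearest the Scn7a limit lay at 5.09 and 5.01, and the nearest barcodes outside it at 4.96 and 4.86. At the neuron limit the nearest values were 24.8 and 25.0 inside and 25.0 and 25.1 outside, at the Fabp7 limit 39.1 and 36.8 inside and 42.6 and 40.2 outside, and at the myelinating limit 9.39 and 7.96 inside and 10.2 and 13.8 outside. The neuron limit removed most candidates: of 818 and 823 kept barcodes past the Scn7a limits, 580 and 670 were at or over it, and 278 and 275 of these lay under 50 and were otherwise within the rule. With that limit at 50 the members would number 483 and 404, shares of 5.80% and 3.58%. Neuron RNA was spread over all classes: Calca, a neuron peptide gene, had a UMI in 86.8% and 97.7% of members, against 92.1% and 96.0% of satellite glia.

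The promoters of 4 of the 5 marker genes are shown because these genes were highest together in the members. Each runs from 250 bases before to 50 bases after the start in RefSeq's annotation of GRCm38.p6 and is written 5' to 3' along the gene's strand. C4b had no entry among these sequences. Capitals mark the letters ACAANG, a SOX core, and GGAATG, a TEAD core, on either strand.
Scn7a, chr2:66784861-66785160, minus strand: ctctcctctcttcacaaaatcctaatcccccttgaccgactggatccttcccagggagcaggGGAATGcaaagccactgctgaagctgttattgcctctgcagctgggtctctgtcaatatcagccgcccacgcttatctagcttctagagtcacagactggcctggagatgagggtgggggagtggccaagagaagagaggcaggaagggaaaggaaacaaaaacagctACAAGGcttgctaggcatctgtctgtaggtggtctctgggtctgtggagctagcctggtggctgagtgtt
Entpd2, chr2:25395624-25395923, plus strand: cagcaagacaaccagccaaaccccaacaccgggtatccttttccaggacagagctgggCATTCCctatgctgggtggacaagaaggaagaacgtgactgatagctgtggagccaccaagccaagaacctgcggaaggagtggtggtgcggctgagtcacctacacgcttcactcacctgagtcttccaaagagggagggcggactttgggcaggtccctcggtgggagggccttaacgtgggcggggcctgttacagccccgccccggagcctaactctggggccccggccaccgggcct
Vgll3, chr16:65814939-65815238, plus strand: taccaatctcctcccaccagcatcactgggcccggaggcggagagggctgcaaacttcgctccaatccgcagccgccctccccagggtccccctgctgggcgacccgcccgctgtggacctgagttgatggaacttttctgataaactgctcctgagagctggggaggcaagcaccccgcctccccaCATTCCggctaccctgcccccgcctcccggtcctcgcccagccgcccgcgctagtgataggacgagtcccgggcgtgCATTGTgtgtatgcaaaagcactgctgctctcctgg
Chl1, chr6:103510626-103510925, plus strand: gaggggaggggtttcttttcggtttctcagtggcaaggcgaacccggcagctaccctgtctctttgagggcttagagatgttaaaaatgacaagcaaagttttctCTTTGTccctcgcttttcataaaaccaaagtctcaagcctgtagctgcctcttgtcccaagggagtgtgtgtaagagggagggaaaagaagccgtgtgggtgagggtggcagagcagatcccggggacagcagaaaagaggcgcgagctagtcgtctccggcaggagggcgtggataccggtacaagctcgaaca
Scn7a and Vgll3 each held 1 match to both motifs, Entpd2 held 1 TEAD match, and Chl1 held 1 SOX match. Among all 32851 promoters of this length 41.2% held the SOX letters and 14.7% the TEAD letters, so a match in a window of this size is common and is given as a description of the letters.

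Each of the 5 marker genes was highest in the members among 7 classes (the 3 glial classes, endothelial cells, fibroblasts, mural cells and macrophages) in both libraries. These genes were chosen as markers of the class, so their levels carry no test. Levels are CPM, a gene's UMIs per 1000000 UMIs of the class sum, and genes are placed in mm10, the build of the files. Scn7a (chr2:66673425-66784914, minus strand) had 2527 and 1378 CPM in non-myelinating Schwann cells, against 30.3 and 28.5 CPM in satellite glia and 58.7 and 84.5 CPM in myelinating Schwann cells, and fibroblasts had 91.1 and 91.3 CPM. C4b (chr17:34728380-34743882, minus strand), complement component 4, had 569 and 376 CPM in non-myelinating Schwann cells, against 49.3 and 69.6 CPM in satellite glia and 6.86 and 35.2 CPM in myelinating Schwann cells. Macrophages came next in replicate 1 with 137 CPM of C4b. C4b has a near-identical paralog, C4a, so its counts are uncertain. Entpd2 (chr2:25395874-25401321, plus strand), an ectonucleotidase that breaks down extracellular ATP, had 709 and 417 CPM in non-myelinating Schwann cells, against 142 and 167 CPM in satellite glia and 14.6 and 22.5 CPM in myelinating Schwann cells. Fibroblasts, at 180 and 195 CPM of Entpd2, lay just above satellite glia. Vgll3 (chr16:65815257-65866368, plus strand), a cofactor of TEAD transcription factors, had 263 and 90.8 CPM in non-myelinating Schwann cells, against 19.8 and 19.9 CPM in satellite glia and 51.6 and 39.4 CPM in myelinating Schwann cells. Chl1 (chr6:103510586-103750211, plus strand), the close homologue of the adhesion molecule L1, had 655 and 372 CPM in non-myelinating Schwann cells, against 168 and 158 CPM in satellite glia and 25.1 and 39.4 CPM in myelinating Schwann cells. All 5 were lower in the members of replicate 2 than in those of replicate 1, and the lower member value still lay above every other class.

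**Figure D1:**
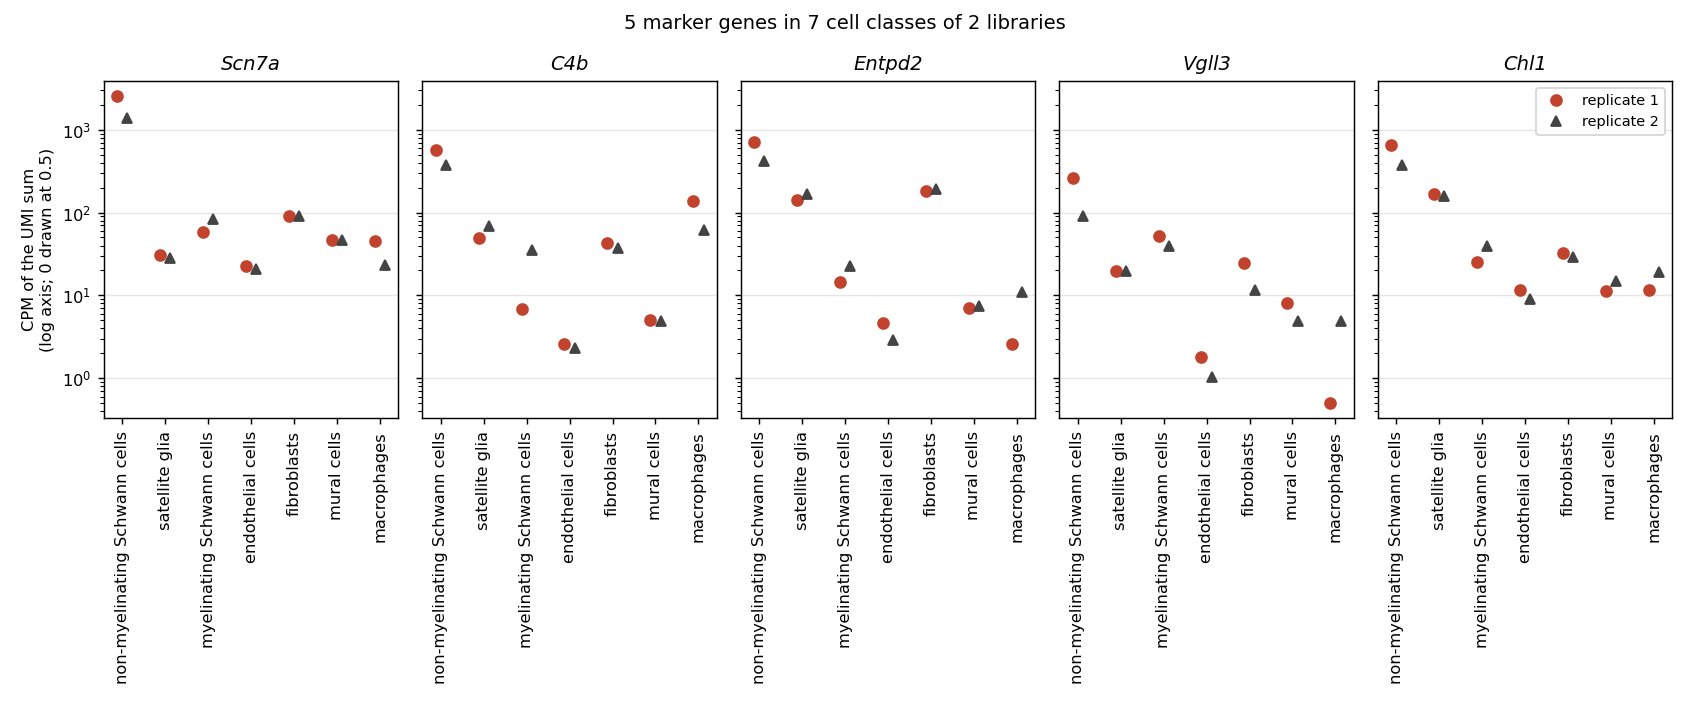
Level of Scn7a, C4b, Entpd2, Vgll3 and Chl1 (CPM of the summed UMIs, log axis) in 7 cell classes, 1 point per library. The non-myelinating Schwann cells, at the left of each panel, lie above the other 6 classes in both libraries, from 2527 and 1378 CPM of Scn7a to 263 and 90.8 CPM of Vgll3.

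By the share of cells with a UMI, C4b had the widest gap between members and satellite glia among the 4 markers that the rule did not use, at equal depth. C4b had a UMI in 69.8% and 60.5% of members, against 25.2% and 29.3% of satellite glia and 2.90% and 6.43% of myelinating Schwann cells. Thinned to 2000 UMIs per cell, which left out 24 and 7 members, the shares were 59.7% and 42.6% of members, against 8.29% and 11.0% of satellite glia. Entpd2 had a UMI in 83.9% and 72.9% of members, against 63.3% and 64.5% of satellite glia, and at 2000 UMIs in 65.7% and 57.4% of members, against 23.4% and 27.3%. Chl1 had a UMI in 80% and 60.5% of members, against 65.9% and 61.4% of satellite glia, and after thinning in 68.5% and 50% of members, against 27.6% and 25.6%. Before thinning, the deeper satellite glia came near the members for Entpd2 and Chl1. Vgll3 had a UMI in 49.8% and 31.0% of members, against 15.1% and 13.8% of satellite glia. Endothelial cells, which should lack these genes, had a UMI of C4b in 1.88% and 1.65%, of Entpd2 in 3.76% and 2.21%, of Vgll3 in 2.19% and 0.735% and of Chl1 in 5.64% and 6.43% of cells, at a median of 11024 and 8286 UMIs.

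The members were not all alike. At least 1 of 4 Schwann lineage or pan-glial genes, Sox10, S100b and Erbb3 among them, had a UMI in 202 of the 205 and 120 of the 129 members. The fibroblast gate, 5 fibroblast genes at 20 or more per 10000, also took in 48 members (23.4%) and 26 members (20.2%), against 6 and 22 satellite glia and 26 and 10 myelinating Schwann cells. Dcn, a fibroblast proteoglycan, reached 20 per 10000 in 8 and 17 members. It had a UMI in 22 and 41 of all members, and the richest barcode held 443 of its 1662 and 308 of its 2956 UMIs. A Dcn sum over the members within the gate therefore does not describe each of them. The members within that gate summed to 8509 and 22533 CPM of Dcn but also 2041 and 915 CPM of Scn7a and 422 and 46.1 CPM of Erbb3, the neuregulin receptor of Schwann cells. The members outside it had 11.2 and 61.0 CPM of Dcn, 2677 and 1525 CPM of Scn7a and 301 and 205 CPM of Erbb3. The macrophage gate took in 0 and 6 members, the endothelial gate 1 and 5, and the mural gate 3 and 3. Scrublet marked 5 and 9 members as doublets, of 555 and 1020 barcodes marked in all, and they were kept.

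Some genes rested on single barcodes. One barcode per library held 720 of 722 and 346 of 369 UMIs of the neutrophil gene S100a8, and one held 3030 of 4243 and 2535 of 2746 UMIs of the haemoglobin gene Hbb-bs. The long noncoding RNA Snhg11 reached 20 per 10000 in 2 and 3 members. The 2 richest barcodes held 97.1% and 77.0% of its UMIs. Those 2 and 3 members held no C4b, Entpd2, Vgll3 or Erbb3 UMI, and 407360 and 218372 CPM of the nuclear RNA Malat1. Stricter members were therefore also counted: at least 1 UMI of the same 4 glial genes, within no other gate, and under 20 per 10000 of Dcn, Hbb-bs, S100a8 and Snhg11. This left 146 and 84 members and was chosen after seeing the data. The reference classes were not restricted in this way: 28 and 69 satellite glia and 42 and 20 myelinating Schwann cells met another gate and stayed in. Differences of the stricter members are therefore between a restricted class and unrestricted ones. The 4 glial genes, the genes of the other gates and Dcn, Hbb-bs, S100a8 and Snhg11 chose the stricter members, so a value of these genes in them follows from the choice. Their levels were 3010 and 1784 CPM of Scn7a, 714 and 546 CPM of C4b, 818 and 591 CPM of Entpd2, 260 and 130 CPM of Vgll3, and 827 and 560 CPM of Chl1.

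**Figure D2:**
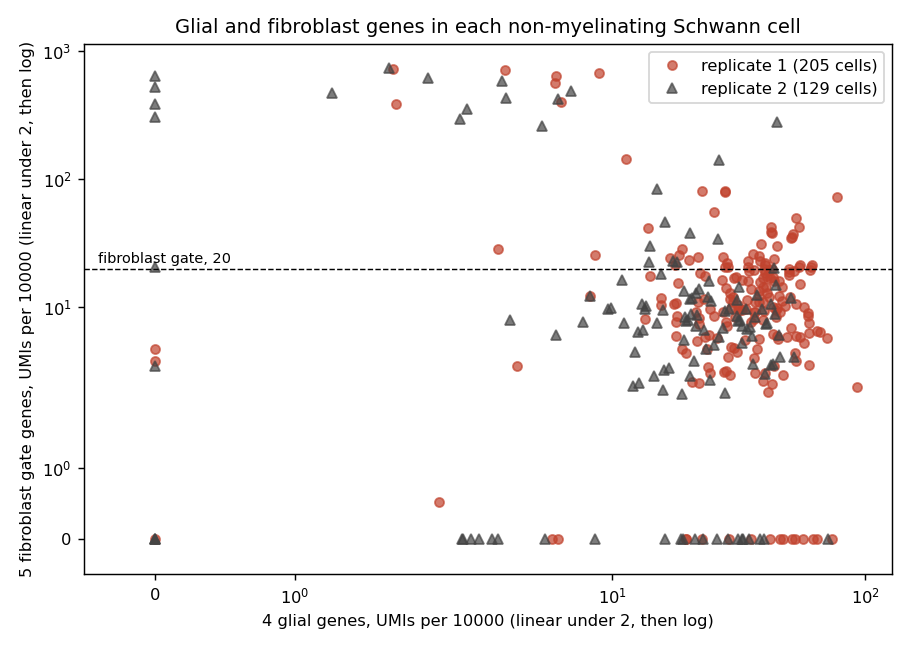
Each point is 1 of the 334 members: the summed level of 4 Schwann lineage or pan-glial genes, Sox10, S100b and Erbb3 among them (x), against the summed level of the 5 fibroblast gate genes (y), both in UMIs per 10000 on axes that are linear near 0 and logarithmic above. Most members lie at the lower right, and 48 members of replicate 1 and 26 of replicate 2 reach the dashed fibroblast gate at 20.

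Summed markers of other cell types were higher in the members than in satellite glia in both libraries, except those of macrophages in replicate 1. The 6 fibroblast markers summed to 4324 and 8010 CPM in members and 912 and 651 CPM in the stricter members, against 368 and 477 CPM in satellite glia and 1697 and 1319 CPM in myelinating Schwann cells, and 0 of the 6 were at 0 in members. Perineurial markers summed to 287 and 282 CPM in members, against 70.4 and 99.8 CPM in satellite glia and 164 and 131 CPM in myelinating Schwann cells, and 1 of the 6 was at 0 in both libraries of the members. In the stricter members the perineurial sum was 297 and 239 CPM. Itgb4, one of the 6 and counted below as an adhesion molecule, made up 272 and 194 CPM of it. Neuron markers summed to 3583 and 3579 CPM in members, against 1902 and 2169 CPM in satellite glia and 2920 and 3636 CPM in myelinating Schwann cells. Macrophage markers summed to 7.30 and 639 CPM in members, against 47.2 and 67.5 CPM in satellite glia, and 1 of the 6 was at 0 in replicate 1. Mural markers summed to 552 and 346 CPM in members, against 69.6 and 109 CPM in satellite glia and 93.3 and 355 CPM in myelinating Schwann cells, and endothelial markers to 118 and 408 CPM in members, against 31.6 and 89.2 CPM in satellite glia and 291 and 252 CPM in myelinating Schwann cells. Erythroid markers summed to 9771 and 10075 CPM in members, against 459 and 1170.1 CPM in satellite glia and 7212 and 4271 CPM in myelinating Schwann cells. Neutrophil markers summed to 2350.4 and 2236 CPM in members, against 212 and 109 CPM in satellite glia and 408 and 677 CPM in myelinating Schwann cells. In the stricter members these 4 sums were 23.1 and 52.8, 21.2 and 77.4, 147 and 809, and 15.4 and 113 CPM in the same order, and lymphoid markers summed to 3.65 and 12.97 CPM in all members, against 2.42 and 3.72 CPM in satellite glia. The lower fibroblast, mural, endothelial, erythroid and neutrophil sums of the stricter members follow at least in part from the limits that chose them. The part of these RNAs in the results below was not tested. Values of the stricter members beside them are a description, and those of genes that chose these members follow from the choice.

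To compare the classes, the UMIs were summed per class and library, 14 sums in all, and fitted with edgeR's quasi-likelihood model with class and library as terms. The 11 genes of the gates were left out, which left 12314 genes tested, and the threshold was a Benjamini-Hochberg adjusted p of 0.05. Against satellite glia 2716 genes passed, which is 22.1% of those tested, with 1311 higher in non-myelinating Schwann cells (10.6%) and 1405 lower (11.4%). Without the library term 1654 passed. Against myelinating Schwann cells 1580 genes passed, 12.8% of those tested, with 822 higher (6.68%) and 758 lower (6.16%), and without the library term 992 passed. The stricter members gave 1612 calls against satellite glia, 650 higher and 962 lower. Against myelinating Schwann cells they gave 1324, 632 higher and 692 lower. List counts of the stricter members are to be read beside these. The scaling factors (TMM) were 1.15 and 1.13 in members, against 0.904 and 0.915 in satellite glia and 0.992 and 1.09 in myelinating Schwann cells, so a fitted log2 difference from satellite glia is lower than the log2 ratio of the printed CPM. The median log2 difference over all genes was -0.01 against satellite glia and 0.02 against myelinating Schwann cells, and DESeq2's scaling moved that against satellite glia to 0.19. Both comparisons use the same sums of the members. List counts below are to be read beside the shares of all genes that passed, higher and lower. The lists were chosen with earlier results of these data known. The reference classes were cut on Fabp7 and on myelinating genes, so their own programmes had to differ in the direction of the cut, and the counts for those lists are a description.

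The Schwann lineage genes Sox10 and Erbb3 did not pass in either comparison. Sox10, the lineage's master transcription factor, had 292 and 88.9 CPM in non-myelinating Schwann cells, against 205 and 161 CPM in satellite glia and 251 and 152 CPM in myelinating Schwann cells. The members of replicate 1 lay above both classes and those of replicate 2 below both. Erbb3, the neuregulin receptor, had 329.7 and 167 CPM in non-myelinating Schwann cells, against 159.6 and 145 CPM in satellite glia and 139 and 131 CPM in myelinating Schwann cells. Without cells that met another gate it passed against myelinating Schwann cells, at a log2 difference of 0.84 (adjusted p = 0.0305). Of the 12 lineage genes 2 were higher than in satellite glia and 10 did not pass, with a median log2 difference of 0.17. Against myelinating Schwann cells 2 were higher and 3 lower, at a median of -0.10. Cdh19, a cadherin of Schwann cell precursors, had 612 and 306 CPM in non-myelinating Schwann cells, against 168 and 131 CPM in satellite glia (log2 difference 1.26, SE 0.21, adjusted p = 0.00126) and 79.0 and 69.0 CPM in myelinating Schwann cells (log2 difference 2.47, SE 0.24, adjusted p = 3.87e-05). Gfra3, the artemin co-receptor, had 82.7 and 57.4 CPM in non-myelinating Schwann cells, against 1.60 and 4.36 CPM in satellite glia (log2 difference 4.50, SE 0.50, adjusted p = 7.47e-05) and 1.79 and 8.45 CPM in myelinating Schwann cells (log2 difference 4.23, SE 0.63, adjusted p = 0.000851). For both genes each library of the members lay above all sums of the other glial classes.

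Most genes listed from the literature for non-myelinating Schwann cells stood higher in both comparisons, beside 10.6% and 6.68% of all genes. The list was chosen with earlier results of these data known, so its counts are a description. Of 16 such genes 11 were higher and 1 lower than in satellite glia, and 10 were higher than in myelinating Schwann cells while the other 6 did not pass. The stricter members gave 10 higher in each. Over all members the median log2 differences were 1.21 and 2.00. Cadm2, a synaptic adhesion molecule, had 226 and 161 CPM in non-myelinating Schwann cells, against 7.99 and 11.6 CPM in satellite glia (log2 difference 4.0, SE 0.30, adjusted p = 7.71e-06) and 20.3 and 22.5 CPM in myelinating Schwann cells (log2 difference 3.05, SE 0.34, adjusted p = 9.77e-05). Emp1, a membrane protein related to Pmp22, had 196 and 787 CPM in non-myelinating Schwann cells, against 2.06 and 28.0 CPM in satellite glia (log2 difference 5.19, SE 0.55, adjusted p = 5.22e-05) and 14.02 and 131 CPM in myelinating Schwann cells (log2 difference 3.05, SE 0.53, adjusted p = 0.00223). It was higher in replicate 2 than in replicate 1 in all these classes, and the members of replicate 1 overlapped no sum of another glial class either. Csmd1, a complement regulator, was higher than in myelinating Schwann cells, with 181 and 111 CPM in members, against 10.4 and 12.7 CPM in myelinating Schwann cells (log2 difference 3.64, SE 0.32, adjusted p = 2.05e-05). Gfap reached only 12.2 and 27.8 CPM in members, against 0.877 and 1.34 CPM in satellite glia (log2 difference 3.73, SE 0.67, adjusted p = 0.00235). Ngfr, the low-affinity neurotrophin receptor, had 111 and 68.5 CPM in members, against 22.7 and 23.4 CPM in satellite glia (log2 difference 1.65, SE 0.25, adjusted p = 0.000622). Against myelinating Schwann cells Ngfr was higher by less (log2 difference 0.99, adjusted p = 0.0329), and that call was lost with the stricter members (log2 difference 0.71, adjusted p = 0.295). Kcna1, a potassium channel subunit, had 1360.1 and 672 CPM in members, against 75.04 and 59.5 CPM in satellite glia (log2 difference 3.53, SE 0.25, adjusted p = 5.01e-06), and 1170.2 and 1153 CPM in myelinating Schwann cells, where the difference did not pass (adjusted p = 0.303). Ptn, the growth factor pleiotrophin, was the gene of this list that was lower than in satellite glia, with 1144 and 813 CPM in members, against 3785 and 3545 CPM in satellite glia (log2 difference -2.21), and it was higher than in myelinating Schwann cells, at 210.2 and 308 CPM (log2 difference 1.86).

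**Figure D3:**
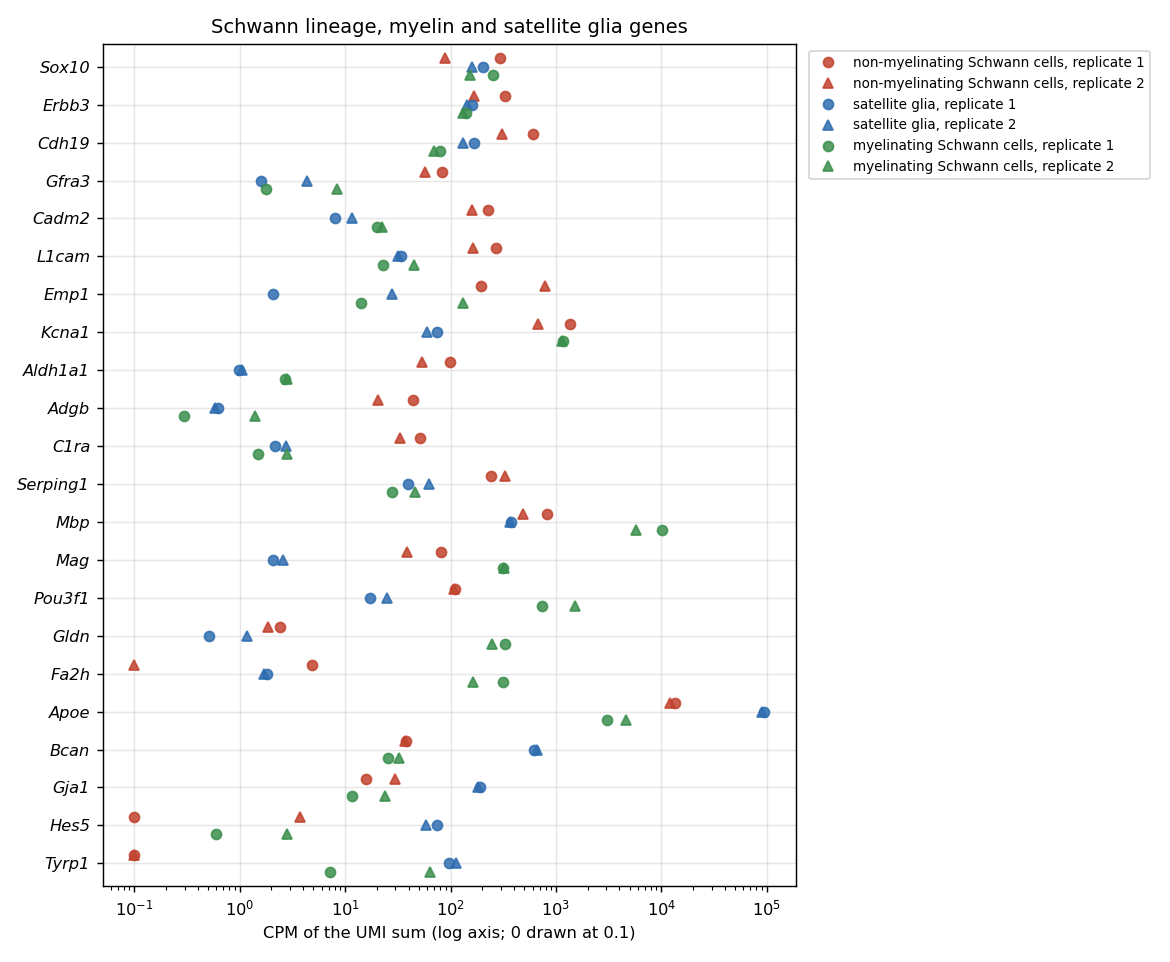
Level (CPM of the summed UMIs, log axis, 0 drawn at 0.1) of Schwann lineage, myelin and satellite glia genes in non-myelinating Schwann cells (red), satellite glia (blue) and myelinating Schwann cells (green), 1 point per library. Cdh19, Gfra3, Cadm2 and L1cam lie highest in the non-myelinating cells, Gldn and Fa2h in the myelinating cells, and Apoe, Bcan and Tyrp1 in satellite glia.

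Adhesion molecules between axon and glia split by gene. Of 26 tested, of 28 listed, 8 were higher and 4 lower than in satellite glia (8 and 4 with the stricter members), and 7 were higher and 5 lower than in myelinating Schwann cells (9 and 5). L1cam, which binds axons, had 273 and 165 CPM in non-myelinating Schwann cells, against 34.1 and 32.1 CPM in satellite glia (log2 difference 2.41, SE 0.25, adjusted p = 5.07e-05) and 23.0 and 45.1 CPM in myelinating Schwann cells (log2 difference 2.75, SE 0.30, adjusted p = 8.52e-05). Its lowest member value was several times every other glial sum. Ncam1, the neural cell adhesion molecule, had 427 and 350.1 CPM in members, against 584 and 628 CPM in satellite glia, where it did not pass (adjusted p = 0.115), and 69.2 and 95.7 CPM in myelinating Schwann cells (log2 difference 2.15, SE 0.44, adjusted p = 0.00607). Itgb4, a laminin-binding integrin, was higher than in satellite glia at 220.2 and 132 CPM in members, against 15.7 and 27.0 CPM in satellite glia (log2 difference 2.73, SE 0.35). Cdh2, N-cadherin, was higher than in myelinating Schwann cells, with 259 and 126 CPM in members, against 25.9 and 32.4 CPM in myelinating Schwann cells (log2 difference 2.68, SE 0.31), as was Nlgn3, a neuroligin, at 91.2 and 61.1 CPM in members, against 8.05 and 14.1 CPM in myelinating Schwann cells (log2 difference 2.88). Genes that were lower included adhesion molecules of the node of Ranvier: Nfasc had 30.4 and 27.8 CPM in members, against 159.8 and 108 CPM in myelinating Schwann cells (log2 difference -2.38), and Nrcam had 19.5 and 14.8 CPM in members, against 44.4 and 40.3 CPM in satellite glia (log2 difference -1.60, lost with the neuron limit at 50: log2 difference -0.14, adjusted p = 0.635) and 54.0 and 90.1 CPM in myelinating Schwann cells (log2 difference -2.08). Cadm3, the nectin-like partner on axons, was lower than in myelinating Schwann cells (log2 difference -2.76), and Cdh6, K-cadherin, likewise (log2 difference -1.77). Cdh11 was lower than in satellite glia, at 52.3 and 50.01 CPM in members, against 293 and 270.1 CPM in satellite glia (log2 difference -2.78). Nrxn3, a neurexin, was higher than in satellite glia (log2 difference 1.55, adjusted p = 0.00393) but not with the stricter members (log2 difference 0.34, adjusted p = 0.72).

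Among called genes at 20 CPM or more in both libraries of the members, the 10 largest named excesses over satellite glia included enzymes, a matrix protease and an Fc receptor. Klk8 (chr7:43797577-43803826, plus strand), the serine protease neuropsin, had 30.4 and 35.2 CPM in non-myelinating Schwann cells, against 0.155 and 0.407 CPM in satellite glia (log2 difference 6.45, SE 0.66, adjusted p = 4.57e-05). Fndc1 (chr17:7738569-7827302, minus strand), a fibronectin type III domain protein, had 58.4 and 37.0 CPM in members, against 0.670 and 0.407 CPM in satellite glia (log2 difference 6.07, SE 0.51, adjusted p = 3.51e-05). Aldh1a1 (chr19:20492715-20643465, plus strand), a retinaldehyde dehydrogenase, had 99.8 and 53.7 CPM in members, against 0.980 and 1.05 CPM in satellite glia (log2 difference 5.87, SE 0.33, adjusted p = 8.6e-07) and 2.68 and 2.82 CPM in myelinating Schwann cells (log2 difference 4.74, SE 0.41, adjusted p = 1.76e-05). Adgb (chr10:10335703-10472326, minus strand), androglobin, had 43.8 and 20.4 CPM in members, against 0.619 and 0.581 CPM in satellite glia (log2 difference 5.31, SE 0.55, adjusted p = 5.02e-05). The limit of 20 CPM in members and the ranking by fold chose these 4 genes, so their near-0 levels in satellite glia are a description. Fcgr2b, the inhibitory Fc receptor, had 69.3 and 100.0 CPM in members, against 1.13 and 1.92 CPM in satellite glia (log2 difference 5.44, 5.93 with the stricter members). Mmp2, a gelatinase, had 73.0 and 133 CPM in members, against 1.44 and 2.27 CPM in satellite glia (log2 difference 5.42, 2.65 with the stricter members). Emp1 was also among the 10.

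The other 3 of the 10 rested on few barcodes. Ccl11, the chemokine eotaxin, had 76.6 and 311 CPM in non-myelinating Schwann cells, against 0.722 and 8.89 CPM in satellite glia (log2 difference 5.31), and its 2 richest barcodes held 76.2% and 38.7% of its UMIs. Among the stricter members its log2 difference was -1.76 and the call was lost. Cyp26b1, which degrades retinoic acid, had 24.3 and 31.5 CPM in members, against 0.206 and 1.05 CPM in satellite glia (log2 difference 5.14), with 75% and 70.6% of UMIs in 2 barcodes, and -4.37 with the stricter members. The noncoding RNA Miat had 120.4 and 122 CPM in members, against 2.17 and 3.43 CPM in satellite glia, and 2 barcodes held 98.0% and 74.2% of it. Its log2 difference was 5.14 over all members and 0.92 over the stricter ones (adjusted p = 0.508).

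The largest deficits against satellite glia were genes that were almost not detected in members. The limit of 20 CPM in satellite glia and the ranking by fold chose them, so their folds and intervals are a description. Their UMIs are summed over both libraries. Tyrp1, an enzyme of pigment synthesis, had 0 UMIs in members, against 3821 in satellite glia, which is at least 47.4-fold lower with the floor at 3 counts over the class. Agt, angiotensinogen, had 0 against 1598 UMIs (at least 19.8-fold lower), Mia 0 against 994 (at least 12.3-fold) and the kinase gene Mapk4 0 against 962 (at least 11.9-fold). The satellite sums were far deeper than those of the members, and the bounds account for that depth. Hes5, a Notch target, had 2 UMIs in members, against 2450 in satellite glia (ratio 45.6-fold, 95% counting interval 12.6 to 377). Ptgds, prostaglandin D synthase, had 2 against 2139 (ratio 39.8-fold, 95% counting interval 11.00 to 329), and Cdh15, M-cadherin, 2 against 2227 (ratio 41.4-fold, 95% counting interval 11.5 to 342). Rspo1, an enhancer of Wnt signalling, Nfe2l3, a transcription factor, and Il25, an interleukin, each had 1 UMI in members, against 1484, 1213 and 1049 in satellite glia.

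The satellite glia list followed the cut on Fabp7: 16 of 18 tested genes, of 20 listed, were lower than in satellite glia (13 with the stricter members) and 2 did not pass, at a median log2 difference of -2.18. Apoe, the lipid carrier, had 13629 and 11988 CPM in non-myelinating Schwann cells, against 94332 and 91089.8 CPM in satellite glia (log2 difference -3.18, SE 0.34), and myelinating Schwann cells had 3073 and 4592 CPM, below the members (log2 difference 1.65, SE 0.33). For Apoe, then, members lay between both classes. Gja1, connexin 43, had 15.8 and 29.6 CPM in members, against 191 and 182 CPM in satellite glia (log2 difference -3.47), Aldoc, an aldolase, 64.5 and 98.2 CPM in members, against 536 and 686 CPM in satellite glia (log2 difference -3.28), and Bcan, the proteoglycan brevican, 37.7 and 37.0 CPM in members, against 615 and 659.9 CPM in satellite glia (log2 difference -4.40). Ednrb, an endothelin receptor, was lower as well, at 265 and 300.1 CPM in members, against 1064 and 985 CPM in satellite glia (log2 difference -2.20). Set against myelinating Schwann cells, 6 of these 18 genes were higher and 1 lower (7 and 1 with the stricter members). They included Sparcl1, a matricellular protein, with 1365 and 945 CPM in members, against 135 and 162 CPM in myelinating Schwann cells (log2 difference 2.83, SE 0.24), and Atp1b2, a sodium pump subunit, with 251 and 135 CPM in members, against 33.1 and 40.8 CPM in myelinating Schwann cells (log2 difference 2.31). Lrrtm1, a synaptic organiser, was higher too, at 76.6 and 42.6 CPM in members, against 12.2 and 18.3 CPM in myelinating Schwann cells (log2 difference 2.02).

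The myelin programme followed the other cut. Of 21 tested genes, of 22 listed, 16 were lower than in myelinating Schwann cells and 1 was higher (15 and 1 with the stricter members), at a median log2 difference of -2.49. Mbp, myelin basic protein, had 824 and 489 CPM in members, against 10237 and 5768 CPM in myelinating Schwann cells (log2 difference -3.75), and Pmp22, the tetraspan myelin protein, 1141 and 774 CPM in members, against 12850.5 and 7673 CPM in myelinating Schwann cells (log2 difference -3.58). Bcas1, expressed as myelin forms, had 12.2 and 9.26 CPM in members, against 463 and 377 CPM in myelinating Schwann cells (log2 difference -5.42). Cryab, a small heat shock protein of Schwann cells, and S100b, a calcium-binding glial protein, were lower by less: Cryab had 1369.9 and 815 CPM in members, against 4895 and 3219.8 CPM in myelinating Schwann cells (log2 difference -2.04) and S100b 747 and 279.7 CPM in members, against 1592 and 480.1 CPM in myelinating Schwann cells (log2 difference -1.12). Against satellite glia 3 of the 21 genes were higher and 2 lower (5 and 1 with the stricter members), beside 10.6% and 11.4% of all genes. Mag, the myelin-associated glycoprotein, had 81.5 and 38.9 CPM in members, against 2.06 and 2.56 CPM in satellite glia (log2 difference 4.41, SE 0.40, adjusted p = 2.2e-05). Pou3f1, a transcription factor of promyelinating Schwann cells, had 109 and 107 CPM in members, against 17.4 and 25.2 CPM in satellite glia (log2 difference 2.06) and 731 and 1506 CPM in myelinating Schwann cells (log2 difference -3.41). Egr2, the driver of myelin genes, had 152 and 279.7 CPM in members, against 9.64 and 94.9 CPM in satellite glia (log2 difference 2.02, SE 0.62, adjusted p = 0.036). Cers2, a ceramide synthase, was lower than in satellite glia (log2 difference -1.18).

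The largest differences from myelinating Schwann cells outside the gate genes were of both kinds. The limit of 20 CPM on the higher side and the ranking by fold chose these genes, so their folds and intervals are a description. Fam178b had 9.73 and 14.8 CPM in non-myelinating Schwann cells, against 1446 and 703 CPM in myelinating Schwann cells (log2 difference -6.64, SE 0.42, adjusted p = 2.84e-06), and Fa2h, which hydroxylates the fatty acids of myelin lipids, had 4.87 and 0 CPM in members, against 315 and 163 CPM in myelinating Schwann cells (log2 difference -6.57, SE 0.48, adjusted p = 6.28e-06). Gjb1, connexin 32, had 1 UMI in members, against 523 in myelinating Schwann cells (ratio 175-fold, 95% counting interval 31.3 to 6936), and Gldn, the nodal protein gliomedin, 3 against 1265 (ratio 141-fold, 95% counting interval 48.2 to 686). Slc36a2, an amino acid transporter, had 3 against 1301. Ddn had 0 UMIs in members, against 258 (at least 28.8-fold lower), Spint1, a serine protease inhibitor, 0 against 234 (at least 26.1-fold), Pdzph1 0 against 232 (at least 25.9-fold), Sec14l5 0 against 160 (at least 17.9-fold) and the cytokine gene Il17b 0 against 92 (at least 10.3-fold). On the high side Gpnmb (chr6:49036546-49070929, plus strand), a transmembrane glycoprotein, had 72 UMIs in members, against 2 in myelinating Schwann cells (ratio 107-fold, 95% counting interval 28.7 to 904). Adgb had 47 against 2 (ratio 70.1-fold, 95% counting interval 18.4 to 596), Arhgef16, a guanine nucleotide exchange factor, 44 against 3 (ratio 43.8-fold, 95% counting interval 14.03 to 220.3), and Vmn1r181, annotated as a vomeronasal receptor, 33 against 2 (ratio 49.2-fold, 95% counting interval 12.6 to 423).

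Noncoding RNAs and A2m made up the rest of the 10 genes most above myelinating Schwann cells, apart from Aldh1a1, and most of them rested on few barcodes. Meg3 had 1844 and 3539.9 CPM in non-myelinating Schwann cells, against 45.0 and 201 CPM in myelinating Schwann cells (log2 difference 4.57), with 78.9% and 59.7% of its UMIs in 2 barcodes, and remained higher at 2.42 with the stricter members. Snhg11 had 745 and 911 CPM in members, against 18.2 and 46.5 CPM in myelinating Schwann cells (log2 difference 4.75), and the limit on Snhg11 removes this difference from the stricter members by construction. C78859 had 114 and 120.4 CPM in members, against 2.39 and 8.45 CPM in myelinating Schwann cells (log2 difference 4.71), and -0.85 with the stricter members. Mirg, a host of imprinted microRNAs, had 45 UMIs in members, against 2, and was not tested among the stricter members. A2m, the protease inhibitor alpha-2-macroglobulin, had 28.0 and 72.2 CPM in members, against 0.596 and 5.63 CPM in myelinating Schwann cells (log2 difference 4.60) and -5.61 with the stricter members, and fibroblasts had 302 and 216 CPM of it.

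**Figure D4:**
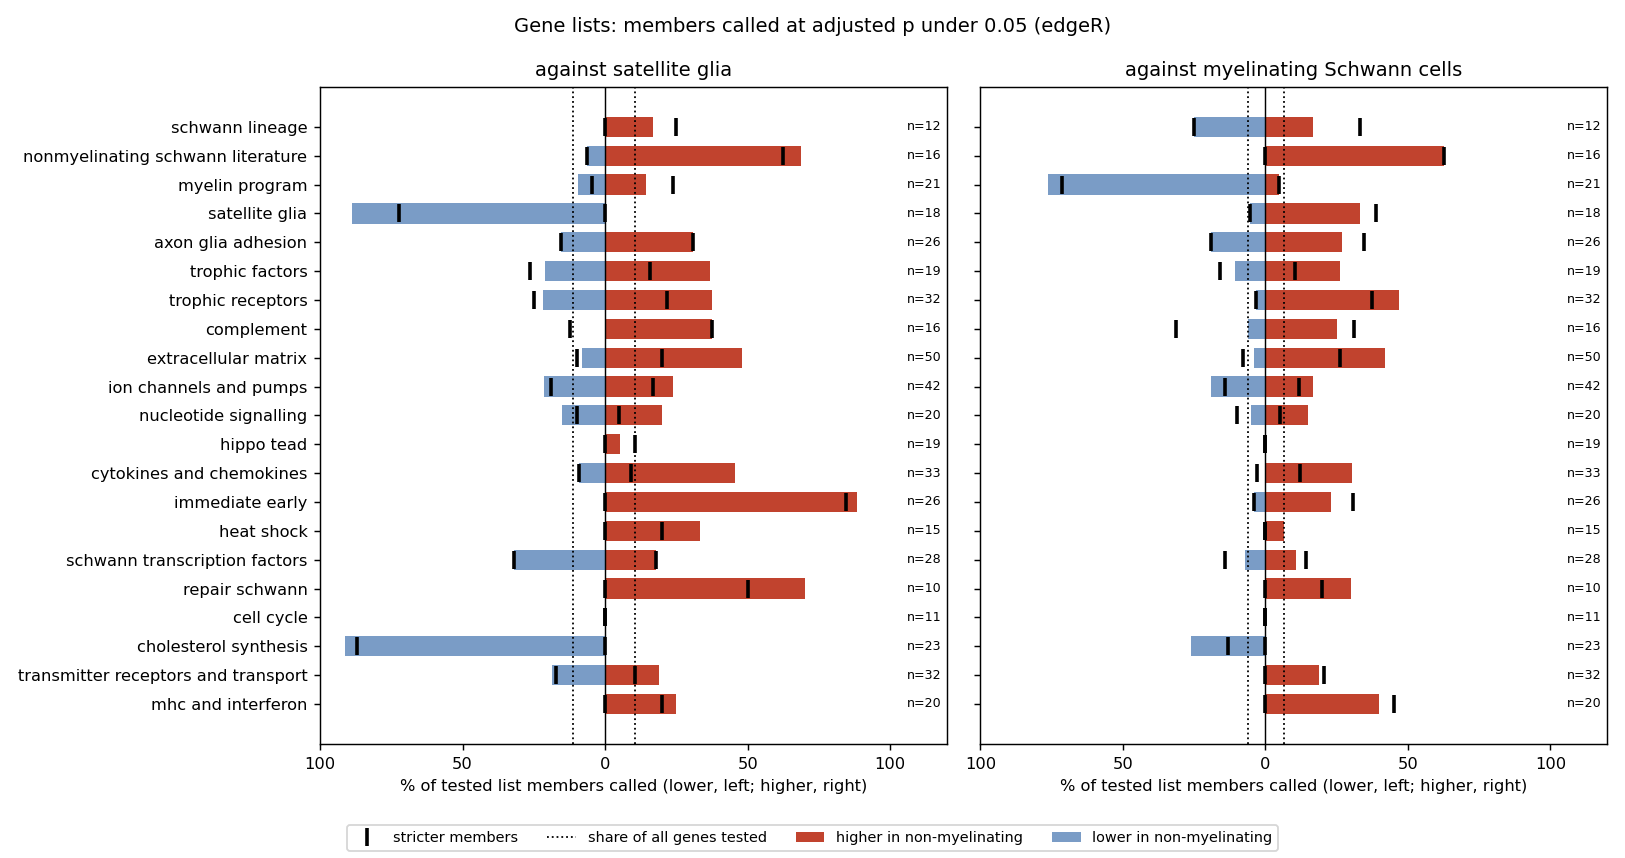
Share of the tested genes of each list that passed the threshold, higher in non-myelinating Schwann cells to the right and lower to the left, against satellite glia and against myelinating Schwann cells. Dotted lines mark the shares over all genes (10.6% higher and 11.4% lower, 6.68% and 6.16%) and black ticks the stricter members: immediate early genes (23 of 26) and cholesterol synthesis genes (21 of 23) stand farthest out on each side against satellite glia beside the satellite glia list (16 of 18).

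Trophic factors and their receptors gave calls in both directions. Of 19 tested factors, of 29 listed, 7 were higher and 4 lower than in satellite glia (3 and 5 with the stricter members), and 5 were higher and 2 lower than in myelinating Schwann cells (2 and 3), so that with the stricter members the split turned in both comparisons. With cells that met another gate left out of all 3 glial classes the counts were 4 and 5, and 4 and 2. Pdgfa, a platelet-derived growth factor, had 229 and 111 CPM in non-myelinating Schwann cells, against 12.7 and 17.9 CPM in satellite glia (log2 difference 3.19, SE 0.34, adjusted p = 6.45e-05). Bdnf, a neurotrophin, had 30.4 and 64.8 CPM in members, against 6.96 and 15.3 CPM in satellite glia (log2 difference 1.77, SE 0.21, adjusted p = 0.000137). Both had each member sum above each satellite sum. The other called factors by size were Igf1, insulin-like growth factor 1, with 24.3 and 50.01 CPM in members, against 3.40 and 2.50 CPM in satellite glia (log2 difference 3.24) and 6.56 and 2.82 CPM in myelinating Schwann cells (log2 difference 2.50), and Pdgfb, the B chain of platelet-derived growth factor, with 9.73 and 18.5 CPM in members, against 1.03 and 2.56 CPM in satellite glia (log2 difference 2.55). Igf1 had 0 CPM in both libraries of the stricter members, with fitted log2 differences of -6.72 (adjusted p = 0.0794) and -7.42 (adjusted p = 0.0307), and Pdgfb lost its call there (log2 difference 1.70, adjusted p = 0.374). A fitted difference of a gene at 0 depends on the prior count of the fit. Vegfa, the vascular growth factor, was lower at 10.9 and 37.0 CPM in members, against 87.1 and 115 CPM in satellite glia (log2 difference -2.53). Against myelinating Schwann cells Fgf2 was higher, with 93.7 and 53.7 CPM in members, against 17.9 and 12.7 CPM in myelinating Schwann cells (log2 difference 2.08), and Fgf1, another fibroblast growth factor, lower, with 98.5 and 53.7 CPM in members, against 264 and 108 CPM in myelinating Schwann cells (log2 difference -1.44). Of 32 receptors tested, of 33 listed, 12 were higher and 7 lower than in satellite glia (7 and 8 with the stricter members), and 15 were higher and 1 lower than in myelinating Schwann cells (12 and 1). Of the 4 largest receptor excesses over satellite glia all but Gfra3 lost the call with the stricter members. Egfr, the epidermal growth factor receptor, had 12.2 and 37.0 CPM in members, against 0.309 and 0.697 CPM in satellite glia (log2 difference 5.11) and 1.19 and 1.41 CPM in myelinating Schwann cells (log2 difference 3.94). Pdgfra, a receptor of fibroblasts for platelet-derived growth factor, had 25.5 and 44.5 CPM in members, against 0.413 and 1.69 CPM in satellite glia (log2 difference 4.70) and 2.39 and 0 CPM in myelinating Schwann cells (log2 difference 3.84). Fgfr2, a fibroblast growth factor receptor, had 3.65 and 16.7 CPM in members, against 0.206 and 0.407 CPM in satellite glia (log2 difference 4.46) and 0.596 and 1.41 CPM in myelinating Schwann cells (log2 difference 3.27). In the stricter members Egfr and Fgfr2 had 0 CPM in both libraries and Pdgfra had 3.86 and 0 CPM, with fitted log2 differences from satellite glia of -4.16 (adjusted p = 0.658), -3.47 (adjusted p = 0.692) and 0.96 (adjusted p = 0.789). Ntrk3, the neurotrophin 3 receptor, had 287 and 137 CPM in members, against 21.1 and 21.9 CPM in satellite glia (log2 difference 2.94, SE 0.24) and 43.5 and 29.6 CPM in myelinating Schwann cells (log2 difference 2.34, SE 0.26). Ntrk2, the BDNF receptor, was lower than in satellite glia at 288 and 254 CPM in members, against 668 and 732 CPM in satellite glia (log2 difference -1.68). Ptprz1, a receptor of pleiotrophin (log2 difference -2.48), Cntfr, the ciliary neurotrophic factor receptor (log2 difference -2.43), and Kit, the stem cell factor receptor (log2 difference -2.71), were lower than in satellite glia too.

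C4b belongs to the complement system, a cascade of plasma proteases and receptors. Of 16 tested complement genes, of 22 listed, 6 were higher than in satellite glia and 10 did not pass, at a median log2 difference of 1.99, and 4 were higher and 1 lower than in myelinating Schwann cells, at 0.62. With the stricter members 6 were higher and 2 lower, and 5 were higher and 5 lower. Leaving cells that met another gate out of all 3 glial classes gave 7 higher and 0 lower, and 6 higher and 1 lower. C1ra, a protease that starts the cascade, had 51.1 and 33.3 CPM in non-myelinating Schwann cells, against 2.17 and 2.73 CPM in satellite glia (log2 difference 3.79, SE 0.29, adjusted p = 9.08e-06) and 1.49 and 2.82 CPM in myelinating Schwann cells (log2 difference 4.47, SE 0.43, adjusted p = 3.81e-05). C1s1, its partner protease that cleaves C4, had 32.8 and 61.1 CPM in members, against 2.06 and 5.11 CPM in satellite glia (log2 difference 3.37, SE 0.45, adjusted p = 0.000281) and 0.895 and 5.63 CPM in myelinating Schwann cells (log2 difference 4.38, SE 0.68, adjusted p = 0.00113). Serping1, the C1 inhibitor, had 242 and 332 CPM in members, against 39.1 and 62.7 CPM in satellite glia (log2 difference 2.18, SE 0.25, adjusted p = 9.97e-05) and 27.7 and 46.5 CPM in myelinating Schwann cells (log2 difference 2.87, SE 0.28, adjusted p = 4.38e-05). For C1ra, C1s1 and Serping1 the log2 differences from satellite glia were 4.10, 2.80 and 1.65 with the stricter members. C3, the central component, had 15.8 and 14.8 CPM in members, against 0.774 and 0.232 CPM in satellite glia (log2 difference 4.50, SE 0.81, adjusted p = 0.0019), and 21 UMIs in members, against 3 in myelinating Schwann cells (ratio 20.9-fold, 95% counting interval 6.24 to 109). Cd55, which dissolves the C3 convertase, was lower than in myelinating Schwann cells at 62.0 and 75.9 CPM in members, against 145 and 144 CPM in myelinating Schwann cells (log2 difference -1.30). Fibroblasts had higher levels of C1ra, C1s1 and Serping1 than the members, at 87.7 and 90.2 CPM of C1ra, 161 and 179 CPM of C1s1, and 982 and 1064 CPM of Serping1.

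Cytokine and chemokine genes were more often higher than lower over all members, but not over the stricter ones against satellite glia. Of 33 tested cytokine and chemokine genes, of 38 listed, 15 were higher and 3 lower than in satellite glia, and 10 were higher than in myelinating Schwann cells while 23 did not pass. These counts were 3 and 3, and 4 higher and 1 lower, with the stricter members. They were 7 and 3, and 5 and 1, with cells that met another gate left out of all 3 glial classes. Cxcl1, a neutrophil attractant, had 227 and 539 CPM in members, against 1.86 and 38.6 CPM in satellite glia (log2 difference 4.70, SE 0.73, adjusted p = 0.000716) and 4.18 and 85.9 CPM in myelinating Schwann cells (log2 difference 3.83, SE 0.76, adjusted p = 0.00514). Cxcl2, of the same family, had 13.4 and 252 CPM in members, against 0.670 and 24.7 CPM in satellite glia (log2 difference 3.24), so that the members of replicate 1 lay below the satellite glia of replicate 2, and the call was lost with the stricter members (adjusted p = 0.0649). Il33, an alarmin cytokine, had 8.52 and 33.3 CPM in members, against 1.13 and 1.10 CPM in satellite glia (log2 difference 3.71) and 0.596 and 1.41 CPM in myelinating Schwann cells (log2 difference 4.34), and 0 CPM in both libraries of the stricter members. The Ccl11 difference from myelinating Schwann cells was 2.97 over all members and -4.10 over the stricter ones (adjusted p = 0.326). Csf1, a macrophage growth factor, had 32.8 and 40.8 CPM in members, against 3.88 and 5.63 CPM in myelinating Schwann cells (log2 difference 2.91). Cxcr4, a chemokine receptor, was lower than in satellite glia at 7.30 and 11.1 CPM in members, against 76.7 and 73.3 CPM in satellite glia (log2 difference -3.42). Of 20 genes of antigen presentation and interferon response 5 were higher than in satellite glia (4 with the stricter members) and 8 higher than in myelinating Schwann cells (9), and the others did not pass. Gbp2, a guanylate-binding protein, had 117 and 169 CPM in members, against 21.5 and 33.6 CPM in satellite glia (log2 difference 2.06) and 13.7 and 40.8 CPM in myelinating Schwann cells (log2 difference 2.51), and Bst2, tetherin, 314 and 185 CPM in members, against 136 and 59.8 CPM in satellite glia (log2 difference 1.08). Psmb8, an immunoproteasome subunit, had 245 and 163 CPM in members, against 24.5 and 32.4 CPM in myelinating Schwann cells (log2 difference 2.82), and the interferon-induced Ifitm3 1743 and 1888 CPM in members, against 218 and 424 CPM in myelinating Schwann cells (log2 difference 2.40). The class II gene H2-Ab1 had 4.87 and 285 CPM in members, against 9.33 and 9.94 CPM in satellite glia. H2-Eb1, of the same class, had 9.73 and 287 CPM in members, against 8.25 and 8.95 CPM in satellite glia. Their excess lay in replicate 2, where the macrophage markers summed to 639 CPM, and neither passed with the stricter members (adjusted p = 0.887 for H2-Ab1 and 0.222 for H2-Eb1).

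Extracellular matrix genes, the longest list, had the largest number of calls among the lists. Immediate early genes (23 of 26) and cholesterol synthesis genes (21 of 23) had larger shares called against satellite glia. Fewer matrix genes passed among the stricter members, which hold no fibroblast-gated cells. Over all genes the calls higher than in satellite glia also fell, from 1311 to 650, and those higher than in myelinating Schwann cells from 822 to 632. The part of the fibroblast-gated cells in the matrix counts was not tested. Of 50 tested, of 52 listed, 24 were higher and 4 lower than in satellite glia, and 21 were higher and 2 lower than in myelinating Schwann cells. With the stricter members 10 were higher and 5 lower, and 13 higher and 4 lower. Col1a1, fibrillar collagen, had 601 and 532 CPM in non-myelinating Schwann cells, against 15.4 and 19.2 CPM in satellite glia (log2 difference 4.70, 2.65 with the stricter members). Col6a1, a collagen of the endoneurium, had 64.5 and 98.2 CPM in members, against 1.34 and 5.17 CPM in satellite glia (log2 difference 4.38) and lost the call with the stricter members (log2 difference 0.76, adjusted p = 0.707). Relative to myelinating Schwann cells Lum, the proteoglycan lumican (log2 difference 3.68), Col8a1, a short-chain collagen (log2 difference 3.06), and Fn1, fibronectin (log2 difference 2.98), were higher over all members. Over the stricter ones the differences were -2.25 for Lum (adjusted p = 0.101), -0.09 for Col8a1 (adjusted p = 0.99) and -7.04 for Fn1, which had 0 CPM there (adjusted p = 0.49). Matn2, a matrix adaptor protein of peripheral nerve, kept its value: it had 987 and 619 CPM in non-myelinating Schwann cells, against 77.5 and 78.8 CPM in myelinating Schwann cells (log2 difference 3.22, SE 0.33, adjusted p = 5.82e-05), and 3.49 with the stricter members. Fbln5 and Fbln2, fibulins that bind elastic fibres, were lower than in satellite glia, at 99.8 and 98.2 CPM in members, against 792 and 868 CPM in satellite glia (log2 difference -3.38) and 178 and 161 CPM in members, against 1055 and 794 CPM in satellite glia (log2 difference -2.78). Spp1, osteopontin, was lower than in myelinating Schwann cells at 62.0 and 215 CPM in members, against 872 and 545 CPM in myelinating Schwann cells (log2 difference -2.62).

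Ion channel and pump genes split evenly against satellite glia. Of 42 tested, of 45 listed, 10 were higher and 9 lower (7 and 8 with the stricter members), and against myelinating Schwann cells 7 were higher and 8 lower (5 and 6). Beside Kcna1, its relative Kcna2 was higher than in satellite glia at 708 and 369 CPM in members, against 111 and 107 CPM in satellite glia (log2 difference 1.91, SE 0.23), and Kcna6 was higher than in myelinating Schwann cells at 260.3 and 191 CPM in members, against 20.9 and 46.5 CPM in myelinating Schwann cells (log2 difference 2.84, SE 0.34). Kcnk1, a leak channel, was lower than in myelinating Schwann cells at 13.4 and 18.5 CPM in members, against 222 and 160.5 CPM in myelinating Schwann cells (log2 difference -3.80). The water channel Aqp4 had 3 UMIs in members, against 2724 in satellite glia (ratio 33.8-fold, 95% counting interval 11.6 to 164), and the chloride cotransporter Slc12a2 had 113 and 132 CPM in members, against 488 and 566 CPM in satellite glia (log2 difference -2.44). Of 20 nucleotide signalling genes 4 were higher and 3 lower than in satellite glia (1 and 2 with the stricter members). P2ry14, a receptor of UDP sugars, was higher over all members (log2 difference 2.03) and at -1.11 over the stricter ones (adjusted p = 0.721). Entpd1, an ectonucleotidase like Entpd2, was one of the lower genes, with 10.9 and 11.1 CPM in members, against 41.0 and 33.1 CPM in satellite glia (log2 difference -2.10), while Entpd2 was highest in the members. Among 32 transmitter receptors and transporters tested, of 41 listed, 6 were higher and 6 lower than in satellite glia (3 and 5 of 29), and 6 were higher than in myelinating Schwann cells (6 of 29) while 26 did not pass. Grik3, a kainate receptor subunit, had 57.2 and 27.8 CPM in members, against 2.98 and 7.04 CPM in myelinating Schwann cells (log2 difference 3.41, SE 0.41), and S1pr3, a sphingosine phosphate receptor, 395 and 243 CPM in members, against 26.2 and 78.8 CPM in myelinating Schwann cells (log2 difference 2.78, SE 0.42). The AMPA receptor subunit Gria2 had 42.6 and 42.6 CPM in members, against 3.66 and 3.20 CPM in satellite glia, with 77.1% and 82.6% of its UMIs in 2 barcodes, and it was not tested among the stricter members.

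Immediate early genes were higher than in satellite glia almost as a whole: 23 of 26 passed, 22 with the stricter members, against 10.6% of all genes, and the median log2 difference was 1.94. Atf3, a transcription factor induced by stress and injury, had 1771 and 2236 CPM in non-myelinating Schwann cells, against 28.4 and 263 CPM in satellite glia (log2 difference 3.89, SE 0.53, adjusted p = 0.000307) and 237 and 442 CPM in myelinating Schwann cells (log2 difference 2.52, SE 0.50, adjusted p = 0.00472). Both member sums lay above all 4 others. Myc, a growth regulator, had 45.0 and 243 CPM in members, against 3.04 and 23.4 CPM in satellite glia (log2 difference 3.21, SE 0.38, adjusted p = 0.000124) and 11.3 and 36.6 CPM in myelinating Schwann cells (log2 difference 2.29, SE 0.44, adjusted p = 0.00399). Klf2, a transcription factor, had 258 and 1087 CPM in members, against 13.3 and 193 CPM in satellite glia (log2 difference 2.73). Fosb, of the Fos family, had 539 and 2130.2 CPM in members, against 49.5 and 362 CPM in satellite glia (log2 difference 2.57). Fos had 5417 and 8434 CPM in members, against 412 and 3446 CPM in satellite glia (log2 difference 1.74, adjusted p = 0.0344), and Jun, its dimer partner and a driver of the repair Schwann cell, 3062 and 4162 CPM in members, against 402 and 1793 CPM in satellite glia (log2 difference 1.46, adjusted p = 0.0483). With the neuron limit at 50 the calls of Fos (adjusted p = 0.0688) and Jun (adjusted p = 0.0976) against satellite glia were lost. The satellite glia themselves differed several-fold between the libraries for Fos and Atf3, with replicate 2 higher. Against myelinating Schwann cells 6 of the 26 were higher and 1 lower (8 and 1 with the stricter members), at a median of 0.53. Fos, at 4413 and 4660.0 CPM in myelinating Schwann cells, did not pass there (adjusted p = 0.704). Jun, at 1030.3 and 1330.4 CPM in them, did not pass either (adjusted p = 0.065) but passed with the stricter members (log2 difference 1.73, adjusted p = 0.0318). The early response genes Ier2 (log2 difference 1.47) and Ier3 (log2 difference 1.60) were higher and the nuclear receptor Nr4a2 was lower, at 118 and 194 CPM in members, against 469 and 1143 CPM in myelinating Schwann cells (log2 difference -2.40), and the Ier3 call was lost with the stricter members (adjusted p = 0.0959).

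Heat shock and repair genes were counted beside 10.6% of all genes higher than in satellite glia and 6.68% higher than in myelinating Schwann cells. Of 15 heat shock genes 5 were higher than in satellite glia (3 with the stricter members). Against myelinating Schwann cells 1 was higher, near the share over all genes. Hspa1a, an inducible chaperone, had 3674 and 871 CPM in members, against 271 and 174 CPM in satellite glia (log2 difference 2.34, SE 0.78, adjusted p = 0.0492), was higher in replicate 1 in both classes, and did not pass with the neuron limit at 50 (adjusted p = 0.0827). Of 10 tested genes of repair Schwann cells, of 19 listed, 7 were higher than in satellite glia (5 with the stricter members) and 3 higher than in myelinating Schwann cells (2). Cdkn2a, a cell cycle inhibitor, had 9.73 and 37.0 CPM in members, against 0.309 and 1.39 CPM in satellite glia (log2 difference 4.36) and 0 and 1.41 CPM in myelinating Schwann cells (log2 difference 5.83), and 0 CPM in both libraries of the stricter members. Jun, Bdnf, Ngfr and Gfap, described above, belong to this list, were among the 7 and passed with the stricter members too.

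Cholesterol synthesis ran the other way. Of 23 genes 21 were lower than in satellite glia (20 with the stricter members) and the other 2 did not pass, against 11.4% of all genes, and the median log2 difference was -1.93. Dhcr7, the last enzyme of one branch of the pathway, had 20.7 and 20.4 CPM in non-myelinating Schwann cells, against 122 and 153 CPM in satellite glia (log2 difference -3.04, SE 0.33, adjusted p = 7.27e-05). Lss, lanosterol synthase, had 13.4 and 18.5 CPM in members, against 91.4 and 106 CPM in satellite glia (log2 difference -2.98, SE 0.34, adjusted p = 8.66e-05), and Mvd, mevalonate diphosphate decarboxylase, 17.0 and 25.9 CPM in members, against 113 and 129 CPM in satellite glia (log2 difference -2.86, SE 0.31, adjusted p = 7.05e-05). For each of them both member sums lay well below both satellite sums. Relative to myelinating Schwann cells 6 were lower (3 with the stricter members), at a median of -0.49. The calls of Hmgcs1, a synthase of the mevalonate pathway (log2 difference -1.22), and Idi1, an isomerase (log2 difference -1.17), were lost with the stricter members (adjusted p = 0.0605 and 0.0816).

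**Figure D5:**
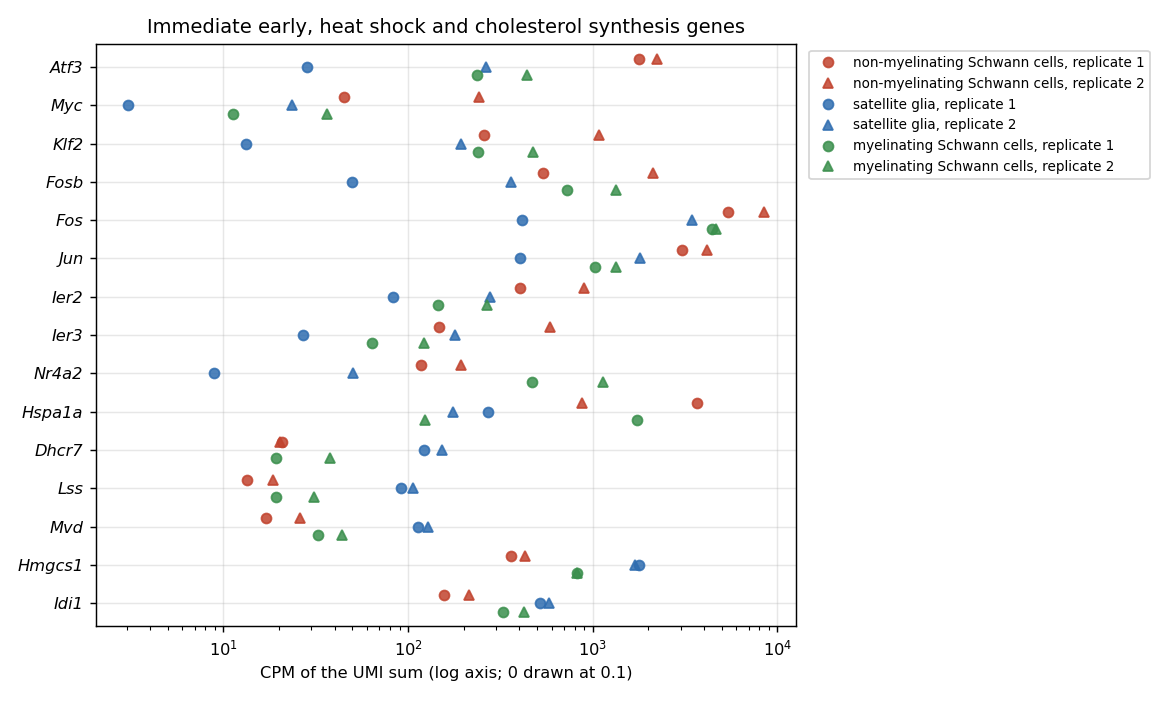
Level (CPM of the summed UMIs, log axis) of immediate early, heat shock and cholesterol synthesis genes in non-myelinating Schwann cells (red), satellite glia (blue) and myelinating Schwann cells (green), 1 point per library. Atf3 and Myc are highest in the non-myelinating cells, Nr4a2 in the myelinating cells, and Dhcr7, Lss and Mvd are lowest in the non-myelinating cells against satellite glia.

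Transcription factors of the lineage were mixed. Of 28 tested, of 30 listed, 5 were higher and 9 lower than in satellite glia (5 and 9 with the stricter members), and 3 were higher and 2 lower than in myelinating Schwann cells (4 and 4). Over all genes 10.6% were higher and 11.4% lower than in satellite glia, and 6.68% and 6.16% than in myelinating Schwann cells. The counts against myelinating Schwann cells lay near these shares. Hey2, a Notch effector, had 46.2 and 31.5 CPM in members, against 260.5 and 219 CPM in satellite glia (log2 difference -2.93, SE 0.35), and Id4, an inhibitor of helix-loop-helix factors, 57.2 and 46.3 CPM in members, against 320.5 and 264 CPM in satellite glia (log2 difference -2.81, SE 0.30). Sox6, known from oligodendrocytes to hold back differentiation, had 98.5 and 48.2 CPM in members, against 7.75 and 21.1 CPM in myelinating Schwann cells (log2 difference 2.65, SE 0.41), and Id3 1167 and 1428 CPM in members, against 188 and 366 CPM in myelinating Schwann cells (log2 difference 2.17, SE 0.40). Foxo1, a target of insulin signalling, was higher by less (log2 difference 0.87). Since Vgll3 acts with TEAD factors, 19 genes of the Hippo and TEAD pathway were also counted. Amotl2, an angiomotin, was the 1 gene higher than in satellite glia, with 79.1 and 44.5 CPM in members, against 16.7 and 17.5 CPM in satellite glia (log2 difference 1.50, adjusted p = 0.0059), 2 were higher with the stricter members, and the others did not pass. Against myelinating Schwann cells edgeR called 0 of the 19 and DESeq2 0, with 1 higher and 2 lower at an unadjusted p under 0.05. Of 11 cell cycle genes tested, of 12 listed, edgeR and DESeq2 called 0 in either comparison, and 0 had an unadjusted p under 0.05.

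The genes whose pattern was most like that of Scn7a were ranked by Pearson's r of log2 CPM over the 14 sums, which come from 2 libraries and differ in depth. The rule chose the members on Scn7a, so its high level in their sums is given, and genes that are high in the members rank high for that reason. The ranking and its r values are therefore a description. Adam23, a membrane protein of the disintegrin family that binds integrins, ranked first at r = 0.941, with 359 and 206 CPM in non-myelinating Schwann cells, against 31.2 and 24.9 CPM in satellite glia and 45.6 and 38.0 CPM in myelinating Schwann cells. With the stricter members its r was 0.948. L1cam had rank 6 at 0.912 (0.924 with the stricter members), the kinase gene Stk32a rank 7 at 0.908 (0.918), and Shank1, a synaptic scaffold, rank 10 at 0.893 (0.834). Sap30bpos, annotated on the opposite strand of another gene, had rank 4 at 0.917 (0.930), and its counts are uncertain for that reason. The other 5 of the 10, Lrp1b, Gria2, Gm43376, Sgcz and Miat, had an r between 0.903 and 0.923, and between -0.364 and 0.604 with the stricter members.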

How the data were processed

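The authors deposited gene by barcode UMI counts of 2 libraries of AEW ganglia. The submitters' processing notes name CASAVA 1.8, Cell Ranger 5.0.1 and mm10, and whether UMIs were counted by strand is not given in the sources used here. The members, markers and gene lists were chosen with earlier results of these data known. Barcodes were assigned to classes by the stated limits. The other 4 classes, endothelial cells, fibroblasts, mural cells and macrophages, needed 20 per 10000 and 3 UMIs over 5 genes each and served to estimate the spread. Scrublet (scanpy 1.11.5) marks were an alternative only. Counts were summed per class and library with pandas 2.3.3 and fitted with edgeR 4.0.16 in R 4.3.3, after its filter on low counts, with TMM scaling, 6 residual degrees of freedom and Benjamini-Hochberg adjustment. Members of a list that the filter removed are not counted as tested, and a gene that passed the filter through the class where it is high had to differ. Sums of the same library were paired by the library term because they come from the same sample. SE is the log2 difference over the square root of F. Genes were named by a rule: per comparison the 10 largest differences in each direction with the same sign in both libraries and at least 20 CPM on the higher side, and per list up to 4 called genes in each direction at 10 CPM or more. The rule gave 221 gene comparisons, of which 166 are counted as printed. Ngfr against myelinating Schwann cells, given above, is counted among the other 55. Of these 55, 32 passed with the stricter members, 22 did not and 1 was not tested, and 0 changed sign. Genes that did not pass are named for comparison, and Fos, Jun, Apoe, Ntrk3, Ngfr, Ncam1, Mbp and Pmp22 were chosen after their values were seen. Alternatives included DESeq2 1.42.0 and other limits, and the fit was tested on simulated data. Depth and precision stand beside the values.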

Additional observations from a re-analysis of the deposited data

How the results depend on the processing

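Of 184 gene comparisons named in the text, between 145 and 184 kept their direction and their side of the threshold under each alternative that gave a test. Ngfr against myelinating Schwann cells is not among the 184. Sums without the replicate block, that is without the library term that pairs sums of the same library, gave 1654 calls against satellite glia and 992 against myelinating Schwann cells. A limit of 50 for the neuron genes gave 5254 and 3157 calls and a mean share of 4.69%, a required fold of 1.5 gave 1290 and 869, and the stricter members gave 1612 against satellite glia. The remaining alternatives gave 1883 to 3286 and 1309 to 2032 calls. Leaving out 1 library leaves no residual degrees of freedom, so gene counts were not refitted, and the share ranged from 1.14% to 2.46%. The fold, neuron limit, stricter and RNA-carrier alternatives were chosen after seeing the data.

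With the stricter members the log2 difference from satellite glia changed sign to -1.76 for Ccl11, -4.37 for Cyp26b1, -6.72 for Igf1, -4.16 for Egfr, -3.47 for Fgfr2, -1.11 for P2ry14, -5.28 for Il33 and -4.75 for Cdkn2a. That from myelinating Schwann cells changed to -0.85 for C78859, -5.61 for A2m, -7.42 for Igf1, -5.26 for Egfr, -4.59 for Fgfr2, -2.25 for Lum, -0.09 for Col8a1, -7.04 for Fn1, -4.57 for Il33, -4.10 for Ccl11 and -3.22 for Cdkn2a. For Sox10 it changed to 0.07 and 0.17 in the 2 comparisons, which the choice favours, since Sox10 is one of the 4 glial genes that these members had to carry. Without cells that met another gate the values were -4.04 for Cyp26b1, -4.90 for Igf1, -2.75 for Egfr, -4.75 for Il33 and -3.45 for Cdkn2a against satellite glia, and -5.06 for Igf1, -3.21 for Egfr, -0.19 for Lum, -4.72 for Fn1, -4.18 for Il33 and -3.33 for Cdkn2a against myelinating Schwann cells. Without carriers of Dcn, Hbb-bs or S100a8 they were -4.38 for Cyp26b1, -1.17 for Igf1, -4.17 for Egfr, -5.29 for Il33 and -4.77 for Cdkn2a against satellite glia, and -1.87 for Igf1, -5.27 for Egfr, -0.41 for Pdgfra, -0.04 for Fgfr2, -2.84 for Lum, -0.94 for Fn1, -4.58 for Il33, -2.15 for Ccl11 and -3.23 for Cdkn2a against myelinating Schwann cells. C78859 was at -0.96 without the Snhg11-rich members. With Scn7a at 3 UMIs and 10 per 10000 the differences from satellite glia were -0.06 for H2-Eb1, -1.49 for H2-Ab1, -1.73 for Igf1, -3.46 for Fgfr2, -0.26 for P2ry14 and -5.28 for Il33, and those from myelinating Schwann cells 0.02 for Sox10, -2.43 for Igf1, -4.59 for Fgfr2, -0.03 for Lum, -0.63 for Col8a1, -2.04 for Fn1, -4.57 for Il33 and -1.84 for Ccl11. Over the single libraries H2-Ab1 ranged from -0.87 to 4.77 and Sox10 from -0.85 to 0.51 against satellite glia, and Kcna1 from -0.78 to 0.22 and Sox10 from -0.77 to 0.22 against myelinating Schwann cells. The cause of these changes was not tested, beyond the barcodes each alternative leaves out. The members hold far fewer UMIs than satellite glia, which limits genes of low CPM.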
